A study of Arabidopsis thaliana with 24 samples.

Results

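The genes described here are 10 genes of abscisic acid metabolism and signalling in Arabidopsis thaliana: NCED3 (AT3G14440), ABA2 (AT1G52340), CYP707A1 (AT4G19230), CYP707A3 (AT5G45340), PYR1 (AT4G17870), ABI1 (AT4G26080), ABI2 (AT5G57050), HAB1 (AT1G72770), OST1 (AT4G33950) and ABF3 (AT4G34000). They were chosen by name from the 33323 genes of the deposited expression table, and all 10 were among the 19986 genes with enough transcript to be tested. Shoot apices and true leaves of Col-0 wild-type seedlings gave 12 RNA libraries each. The plants had grown on soil at 22 °C for 14 days under 12 h of light (about 100 µmol m-2 s-1) and 12 h of dark, then stayed in constant light (about 60 µmol m-2 s-1), so that rhythms ran without a daily light cue. Samples were taken 90, 94, 98, 102, 106 and 110 h after the transfer (ZT90 to ZT110), with 2 libraries for each tissue and time, and each sample pooled 6 to 10 frozen and dissected seedlings. The column names carry the word mock, but no treatment is described in the labels. All values are FPKM, which are scaled for transcript length and library size, so levels can be set side by side between genes of a library. Between the tissues they depend on how the libraries are scaled: the factors of a median-ratio rescaling were 1.2 to 1.35 for shoot apex libraries and 0.731 to 0.878 for leaf libraries. Tissue differences of the 10 genes are therefore given on both scales. Those of other genes are on the deposited scale unless a rescaled value is given.

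Abscisic acid is the hormone through which plants restrain water loss and growth when water is short, and it also acts in seed dormancy. It is made from carotenoids, with NCED3 cutting the precursor at the committed step and ABA2 oxidising the resulting xanthoxin, and it is inactivated by the CYP707A hydroxylases. Without the hormone, phosphatases such as ABI1, ABI2 and HAB1 hold the kinase OST1 inactive. When PYR1 or a related receptor binds the hormone it blocks the phosphatases, and the freed kinase phosphorylates channels in guard cells and transcription factors such as ABF3.

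The 250 bases before the annotated start of each gene were read from the RefSeq genome TAIR10.1, since the clock and abscisic acid responses are each known for short promoter motifs. The deposited files name TAIR10 and hold no coordinates. The motifs searched, on both strands, were ACGTG, the core of the abscisic acid response element, CACGTG, the G-box, AAAATATCT, the evening element of clock-driven genes, and AAAAATCT, a binding site of the clock protein CCA1. The G-box contains ACGTG on each strand, so every G-box also counts as 2 overlapping cores. Both hydroxylase genes held 1 G-box, and ABI2 and OST1 held 1 evening element each. The windows of HAB1, PYR1 and ABF3 held 1 ACGTG and no G-box, those of NCED3, ABA2 and ABI1 held none of the 4 motifs, and AAAAATCT was found in none of the 10. Among the 27443 windows of all protein-coding genes, 22.9% held ACGTG, 6.49% the G-box, 2.36% the evening element and 6.69% AAAAATCT. The windows of the 4 genes with a G-box or an evening element are shown, with the match in capitals; both evening elements lie on the strand opposite to the gene. CYP707A1 (chr4:10521009-10521258, plus strand) and CYP707A3 (chr5:18371022-18371271, minus strand) come first, then ABI2 (chr5:23086872-23087121, plus strand) and OST1 (chr4:16271495-16271744, plus strand).
CYP707A1: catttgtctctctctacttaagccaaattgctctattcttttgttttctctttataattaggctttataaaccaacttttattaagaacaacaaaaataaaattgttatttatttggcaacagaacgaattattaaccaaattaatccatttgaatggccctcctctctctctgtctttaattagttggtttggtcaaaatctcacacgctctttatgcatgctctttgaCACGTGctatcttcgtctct
CYP707A3: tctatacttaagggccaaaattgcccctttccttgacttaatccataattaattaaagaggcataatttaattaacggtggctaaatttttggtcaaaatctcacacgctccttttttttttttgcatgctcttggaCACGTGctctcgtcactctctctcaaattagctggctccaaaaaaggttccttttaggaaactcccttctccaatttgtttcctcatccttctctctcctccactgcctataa
ABI2: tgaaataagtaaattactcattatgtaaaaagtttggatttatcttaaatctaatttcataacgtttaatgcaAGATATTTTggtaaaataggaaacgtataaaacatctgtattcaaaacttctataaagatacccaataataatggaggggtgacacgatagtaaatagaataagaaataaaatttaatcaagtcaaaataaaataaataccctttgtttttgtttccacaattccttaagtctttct
OST1: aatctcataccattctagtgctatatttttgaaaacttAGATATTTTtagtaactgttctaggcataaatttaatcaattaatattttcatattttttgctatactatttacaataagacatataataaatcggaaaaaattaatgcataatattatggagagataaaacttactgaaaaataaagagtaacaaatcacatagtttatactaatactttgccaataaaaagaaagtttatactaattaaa
The 2 hydroxylase windows shared a run of 23 bases, tttggtcaaaatctcacacgctc, which began 61 bases before the start of CYP707A1 and 162 bases before that of CYP707A3. The longest run shared by any other pair of the 10 windows was 15 bases (ABI1 and HAB1, a run of t and a). The G-box lay 20 to 15 bases before the CYP707A1 start and 113 to 108 bases before the CYP707A3 start. A match of letters is a description and does not show a bound site.

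In both tissues the receptor gene PYR1 was the most abundant of the 10. Its mean was 68.4 ± 20.9 FPKM in the shoot apex and 65.9 ± 15.8 in leaves (SD, n = 12), and its lowest library in each tissue (31.8 and 46.5) lay above the highest library of every other member. ABF3, ABI1, HAB1 and ABA2 formed the middle of the order, with means from 9.88 to 19.0 FPKM in the shoot apex and 8.47 to 20.6 in leaves, and the libraries of neighbours in that order overlapped. OST1, ABI2, CYP707A1, CYP707A3 and NCED3 were lower, at 0.340 to 5.58 FPKM in the shoot apex and 0.856 to 4.70 in leaves. Neighbours overlapped here too, and the 1 gap below PYR1 was in the shoot apex, between ABA2 (lowest library 8.94 FPKM) and OST1 (highest library 7.16). The positions at the bottom changed places between tissues: NCED3 was last in the shoot apex and CYP707A1 was last in leaves.

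**Figure D1:**
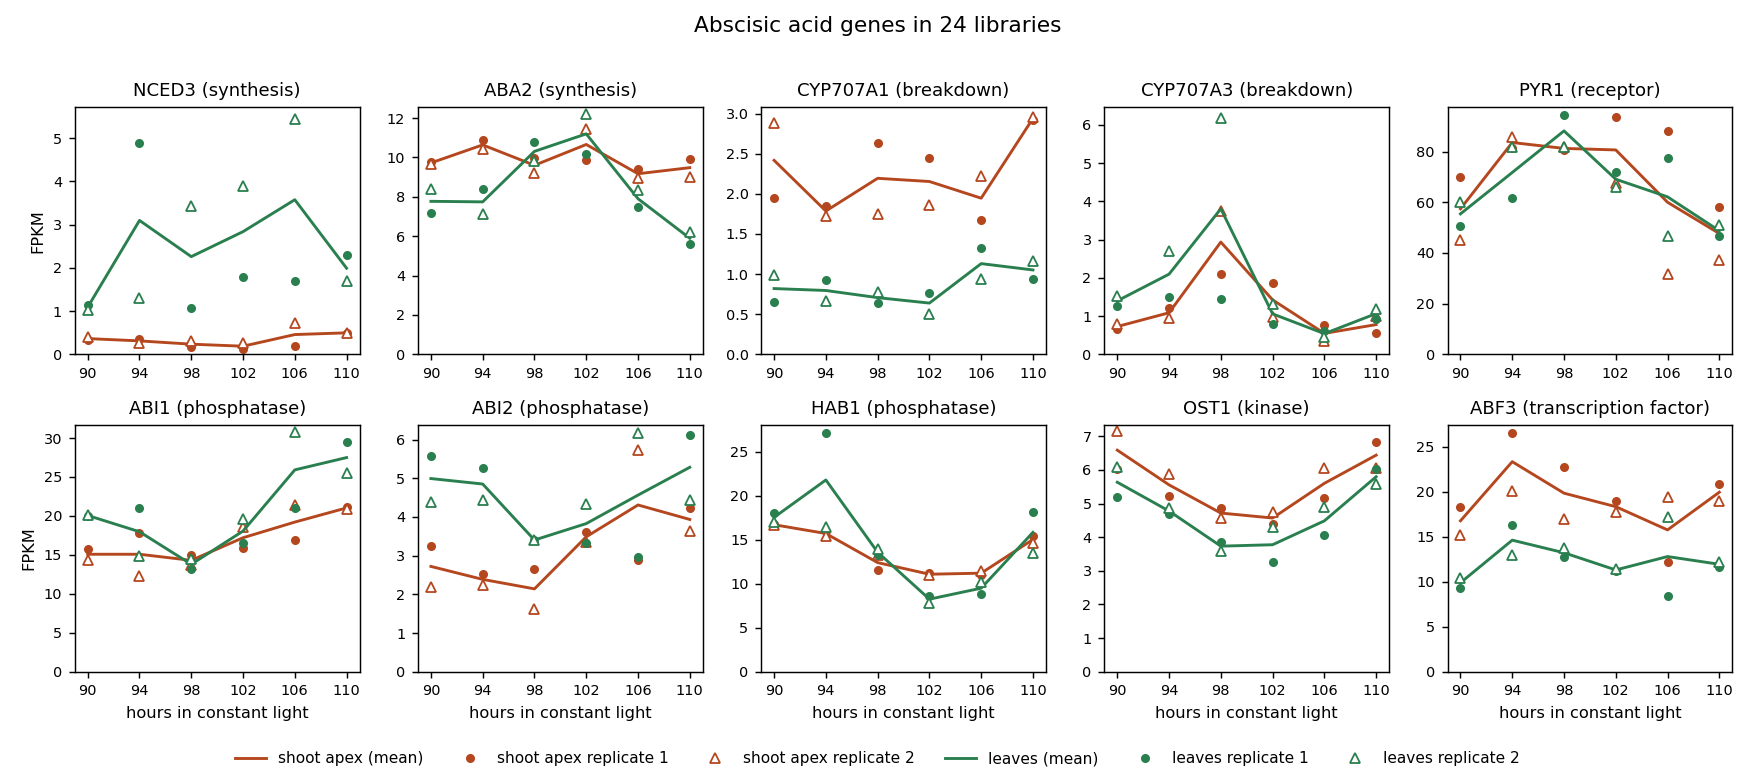
FPKM of the 10 genes against hours in constant light; filled circles and open triangles are the 2 libraries of each tissue and time, and lines join their means. On these deposited values the shoot apex and leaf libraries are separate at every time for NCED3 and CYP707A1. CYP707A3 has its high at 98 h and its low at 106 h in both tissues.

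The first comparison asks how transcript levels differed between the tissues. On the deposited values 1 synthesis gene and 1 breakdown gene showed no overlap between them. The share of all tested genes without overlap was not counted, so the separation cannot be called particular to these genes. Of all tested genes, 90.1% differed between the tissues in the limma fit. Leaves held more transcript of the synthesis gene NCED3, and the shoot apex more of the breakdown gene CYP707A1. In leaves, NCED3 ranged from 1.03 to 5.45 FPKM (median 1.74), and in the shoot apex from 0.116 to 0.714 (median 0.318). No shoot apex library reached the lowest leaf library. The leaf mean was 2.47 ± 1.55 FPKM (SD, n = 12) against 0.340 ± 0.168, a ratio of 7.27, and the fitted difference of shoot apex minus leaves was -1.27 ± 0.18 on the log2(FPKM + 1) scale (SE; limma over all 24 libraries, Benjamini-Hochberg adjusted p = 6.14e-06). That scale understates the change of low genes, and the shoot apex values rested on an estimated 5 to 22 reads per library. CYP707A1, which hydroxylates abscisic acid, ran the other way. It had 1.67 to 2.96 FPKM in the shoot apex (median 2.09) and 0.507 to 1.33 in leaves (median 0.847), without overlap on the deposited values. After rescaling the tissues overlapped, with the highest leaf library above the lowest shoot apex library, both of them replicate 1 at ZT106. The deposited mean of CYP707A1 was 2.62 times as high in the shoot apex, a log2 difference of 0.80 ± 0.073 (limma adjusted p = 2.8e-08). Each difference kept its sign at 6 of 6 times.

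Of the 10 genes, 7 differed between the tissues in the limma fit (adjusted p under 0.05), against 90.1% of all tested genes. Higher levels in the shoot apex were found for 4 (CYP707A1, ABF3, ABA2 and OST1), against 68.6% of all tested genes, and higher levels in leaves for 3 (NCED3, ABI2 and ABI1), against 21.4%. The direction of the smaller differences depends on how the libraries are scaled. On the deposited scale the median difference of all tested genes was 0.58, and that of the 10 genes was 0.00439. When libraries were divided by their median ratio to the geometric mean of each gene (rescaled values), the median of all genes was 0.0233 and that of the 10 genes -0.60. On the rescaled values CYP707A1 was the 1 member still higher in the shoot apex, 8 members were higher in leaves and ABF3 passed in neither direction, while 43.1% of all genes were higher in apices and 41.4% in leaves. NCED3 (-1.58), ABI1 (-0.89), ABI2 (-0.95) and CYP707A1 (0.41) kept both their direction and their call under both scales.

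ABA2, the second synthesis gene, stood at 8.94 to 11.4 FPKM in the shoot apex (median 9.84) and 5.58 to 12.2 in leaves (median 8.36), so the leaf range enclosed the other. The difference was 0.23 ± 0.046 (limma adjusted p = 0.000262) with a higher shoot apex mean at 4 of 6 times, and it turned to -0.40 after rescaling. For CYP707A3, the other hydroxylase, the ranges were 0.338 to 3.76 FPKM (median 0.974) in the shoot apex and 0.464 to 6.18 (median 1.29) in leaves. They overlapped, and the difference of -0.19 ± 0.15 did not pass (limma adjusted p = 0.242), although it passed after rescaling (-0.56, adjusted p = 0.00484) and without leaf replicate 1 at ZT98 (-0.32, adjusted p = 0.0105).

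Among the signalling genes, the receptor PYR1 had almost the same mean in both tissues (0.02 ± 0.15, limma adjusted p = 0.916), and after rescaling the difference was -0.66 (adjusted p = 0.00032). The phosphatase genes ABI1 and ABI2 were higher in leaves. ABI1 had 12.3 to 21.5 FPKM in the shoot apex (median 16.4) and 13.1 to 30.8 in leaves (median 20.1), a difference of -0.24 ± 0.080 (limma adjusted p = 0.0113). ABI2 had 1.63 to 5.74 FPKM in the shoot apex (median 3.07) and 2.97 to 6.16 in leaves (median 4.42), a difference of -0.41 ± 0.11 (limma adjusted p = 0.00282) with the same sign at 6 of 6 times. The libraries of the tissues overlapped for both. HAB1, the third phosphatase, gave -0.01 ± 0.069 (limma adjusted p = 0.914) on the deposited scale and -0.65 after rescaling.

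OST1, the kinase gene needed for stomatal closure, had 4.39 to 7.16 FPKM in the shoot apex (median 5.56) and 3.25 to 6.08 in leaves (median 4.78). Its shoot apex mean was higher at 6 of 6 times, by 0.21 ± 0.052 (limma adjusted p = 0.00113), and the difference turned to -0.36 after rescaling. ABF3, a bZIP factor that activates genes with abscisic acid response elements, had 12.1 to 26.6 FPKM in the shoot apex (median 19.0) and 8.42 to 17.2 in leaves (median 11.9). It was higher in the shoot apex at 6 of 6 times, by 0.59 ± 0.10 (limma adjusted p = 5.48e-05), which is the size of the shift of all genes; rescaled, it was -0.06 (adjusted p = 0.632).

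The dissected tissues also differ in their cell types. Summed over 4 meristem markers (STM, KNAT1, CLV3 and LSH4), shoot apex libraries held 137 to 210 FPKM and leaf libraries 2.57 to 5.14, with CLV3 at 0 in every leaf library. The 3 mesophyll markers summed to 1830 to 2640 FPKM in the shoot apex and 13300 to 20900 in leaves. Guard cell markers (4 genes) summed to 5.06 to 6.95 against 24.2 to 31, and 4 phloem companion cell markers to 18.2 to 34.7 against 212 to 348. The part of these cell types in the differences of the 10 genes was not tested, and in dissected tissue fewer cells of a type and less RNA per cell cannot be told apart. Read depth was estimated at 7.6 to 14.7 M reads in shoot apex libraries and 11 to 14.5 M in leaf libraries.

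**Figure D2:**
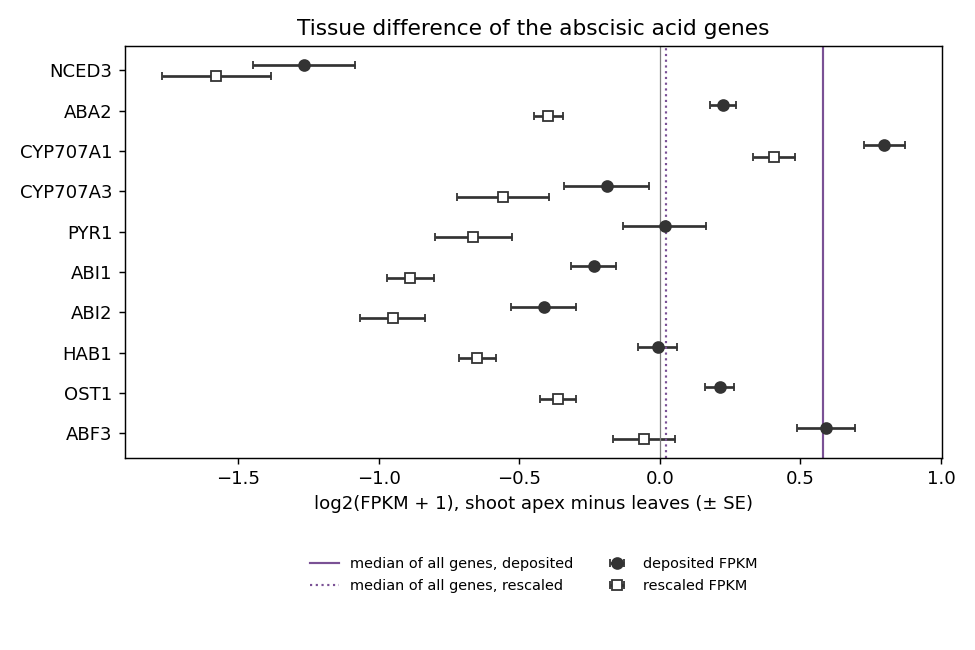
Difference of shoot apex minus leaves (log2(FPKM + 1), ± SE of the limma fit, 12 libraries a tissue) for the 10 genes on the deposited FPKM (filled) and after rescaling (open), with the median of all tested genes as lines. NCED3 lies at the left (-1.27 deposited, -1.58 rescaled) and CYP707A1 at the right (0.80 and 0.41) on both scales.

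The second comparison asks which of the 10 transcripts moved over the day under constant light. A 24 h wave was fitted to each tissue; its amplitude is the log2 distance from mean to peak, and its peak is given in hours after the transfer modulo 24, so that ZT90 is hour 18 and ZT110 is hour 14. The 20 h window is shorter than 1 cycle and hours 14 to 18 were not sampled, so another smooth course could pass the same test. In leaves 5 of 10 genes followed such a wave (HAB1, OST1, ABI1, ABA2 and CYP707A3; limma adjusted p under 0.05), against 40.9% of all tested genes. In the shoot apex 3 of 10 did (HAB1, OST1 and ABI2), against 13% of all genes. The median amplitude of the 10 genes was 0.245 in the shoot apex and 0.328 in leaves, beside 0.109 and 0.172 for all tested genes. As a reference for the running clock, the morning gene CCA1 had amplitudes of 2.24 and 2.18, with peaks at hours 22.86 (apex) and 0.28 (leaves), and the evening gene TOC1 peaked at hours 12.02 and 12.36.

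HAB1, a phosphatase that restrains the kinases, had the clearest wave. In leaves its 2 libraries read 27.15 and 16.5 FPKM at ZT94, and 8.67 and 7.84 at ZT102. In the shoot apex they read 16.8 and 16.6 at ZT90, and 11.2 and 10.985 at ZT102. High and low times did not overlap in either tissue. The amplitude was 0.60 ± 0.070 in leaves, with a peak at hour 19.67 ± 0.44 (limma adjusted p = 1.97e-06), and 0.31 ± 0.070 in the shoot apex, with a peak at hour 18.69 ± 0.86 (adjusted p = 0.0122). The tissues' waves did not differ past the threshold (adjusted p = 0.0971), but did when the fit held a replicate term for each tissue, called the replicate block here (adjusted p = 0.0495, against 20.2% of all tested genes).

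OST1 also moved in both tissues, with about the same timing. Its mean went from 6.59 FPKM at ZT90 to 4.57 at ZT102 in the shoot apex. In leaves it read 6.01 and 5.58 FPKM at ZT110, against 3.86 and 3.60 at ZT98. The amplitude was 0.24 ± 0.044 in the shoot apex (limma adjusted p = 0.00247) and 0.29 ± 0.044 in leaves (adjusted p = 7.39e-05). The fitted peaks, at hours 16.13 ± 0.71 and 16.25 ± 0.58, fall in the hours without samples. The amplitude of the shoot apex minus that of leaves was -0.05 ± 0.063, and the waves did not pass the test of the difference (adjusted p = 0.871).

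The phosphatase genes ABI1 and ABI2 had their lowest mean at ZT98 in both tissues and their highest at ZT106 or ZT110, although the leaf replicates of ABI2 at ZT106 read 2.97 and 6.16 FPKM. ABI1 in leaves read 13.1 and 14.4 FPKM at ZT98, and 29.5 and 25.5 at ZT110. Its amplitude was 0.44 ± 0.075 in leaves, with a peak at hour 13.10 ± 0.66 (limma adjusted p = 0.000301), and 0.25 ± 0.075 in the shoot apex, where it did not pass (adjusted p = 0.0712). ABI2 passed in the shoot apex instead, with an amplitude of 0.37 ± 0.10 and a peak at hour 11.15 ± 1.02 (adjusted p = 0.0386), while in leaves it was 0.24 ± 0.10 (adjusted p = 0.158). Neither gene's waves differed between tissues past the threshold (adjusted p = 0.382 and 0.18). The ABI2 wave rests in part on 1 library: at ZT106 the shoot apex replicates read 2.88 and 5.74 FPKM, and without the second the amplitude was 0.295 and no longer passed. Its call was lost in 7 of 24 fits that left out a library, and also after rescaling (adjusted p = 0.0891).

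ABA2 moved in leaves. There it read 10.2 and 12.2 FPKM at ZT102 and 5.58 and 6.21 at ZT110, and the amplitude was 0.34 ± 0.056 with a peak at hour 3.66 ± 0.62 (limma adjusted p = 0.000146). In the shoot apex all 12 libraries lay between 8.94 and 11.4 FPKM, and the amplitude was 0.06 ± 0.056 (adjusted p = 0.789). It was the 1 gene of 10 whose waves differed between the tissues (adjusted p = 0.0384), against 10.6% of all tested genes. That call was lost in 13 of 24 fits that left out a library, with an adjusted p from 0.00712 to 0.085. The differences of NCED3, CYP707A1, CYP707A3, PYR1 and ABF3 did not pass, with an adjusted p of 0.545 or more.

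CYP707A3 and PYR1 had their highest means at ZT94 or ZT98. The hydroxylase gene CYP707A3 read 1.44 and 6.18 FPKM in leaves at ZT98 and 0.614 and 0.464 at ZT106, so the replicates at its highest time were far apart. In the shoot apex it read 2.11 and 3.76 at ZT98 and 0.754 and 0.338 at ZT106. Amplitudes were 0.58 ± 0.16 in leaves, with a peak at hour 23.54 ± 1.04 (limma adjusted p = 0.0168), and 0.53 ± 0.16 in the shoot apex, with a peak at hour 2.05 (adjusted p = 0.0761). PYR1 had amplitudes of 0.46 ± 0.13 in the shoot apex and 0.37 ± 0.13 in leaves, with peaks at hours 1.65 and 2.24, which did not pass (adjusted p = 0.0527 and 0.0652). With the replicate block, PYR1 passed in both tissues (adjusted p = 0.0097 for the apex and 0.0158 for leaves) and CYP707A3 in the shoot apex (adjusted p = 0.0371). The count then stood at 5 of 10 for the shoot apex, against 20.9% of all tested genes, and at 6 of 10 for leaves, against 54.1%. After rescaling it was 3 of 10 for the shoot apex and 6 of 10 for leaves, against 2254 and 7869 of the 19986 tested genes. ABI2 was not among the 3, so another member passed in the shoot apex on that scale.

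NCED3, ABF3 and CYP707A1 passed in neither tissue, with amplitudes of 0.12 to 0.31. NCED3 in leaves had its highest values in single libraries, 5.45 FPKM in replicate 2 at ZT106 against 1.70 in replicate 1, and 4.88 in replicate 1 at ZT94 against 1.31 in replicate 2. Without the latter library its leaf wave passed (adjusted p = 0.0255). ABF3 was highest in the same libraries of leaves, with 17.2 and 16.3 FPKM. A test of any difference between the 6 times, with no assumed shape, was passed by 4 of 10 genes in leaves (HAB1, ABA2, OST1 and ABI1), against 23.2% of all tested genes. In the shoot apex it was passed by 0 of 10 with limma, against 4.67% of all tested genes. At an unadjusted p under 0.05 there were 3 of 10, against 14.5% of all tested genes. With the replicate block CYP707A3 also passed in leaves (adjusted p = 0.0236), and 13.2% and 43.7% of all genes passed in the shoot apex and leaves.

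**Figure D3:**
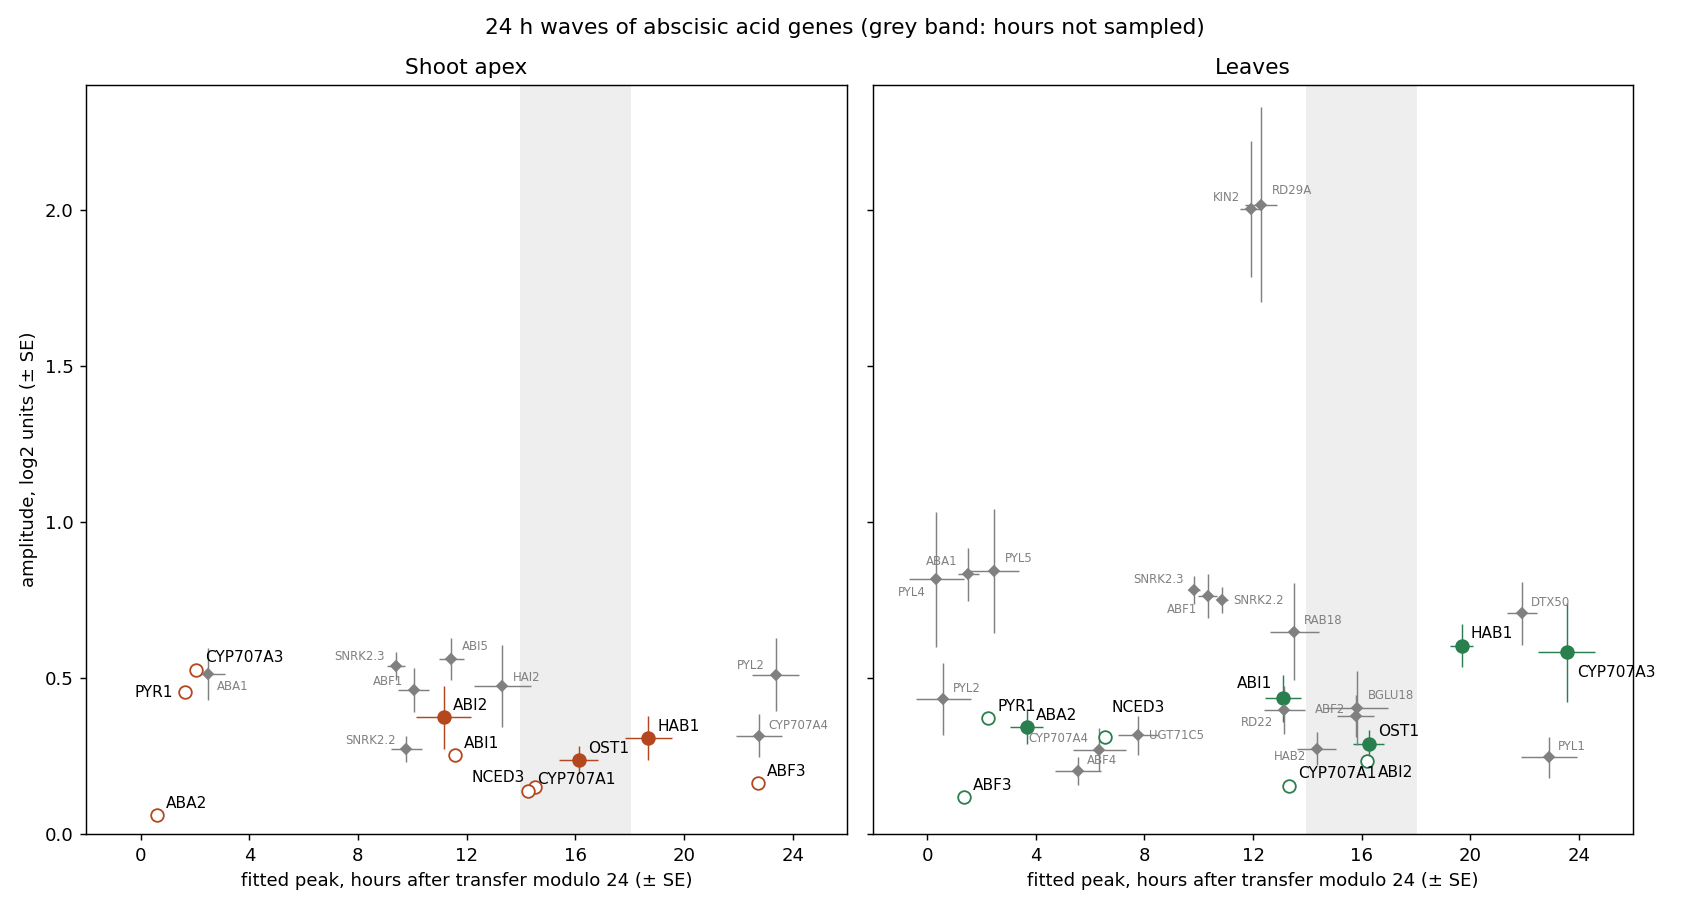
Amplitude (log2 units, ± SE) against fitted peak (hours after transfer modulo 24, ± SE) of the 24 h waves in the shoot apex and leaves; large circles are the 10 genes, filled where the wave passed, and small grey diamonds are other abscisic acid genes that passed. HAB1 and OST1 are filled in both panels at hours 16.13 to 19.67, and RD29A (2.02) and KIN2 (2.00) have the highest amplitudes drawn for leaves.

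Across the 12 group means, centred within each tissue, ABI1 and ABI2 moved together (Pearson r = 0.74), as did PYR1 and CYP707A3 (r = 0.71). PYR1 ran opposite to OST1 (r = -0.8) and to ABI1 (r = -0.79), and ABA2 opposite to OST1 (r = -0.75). These values share their libraries and describe 12 points. Among about 13300 genes with a mean of at least 5 FPKM, the courses most like those of the members reached r = 0.987 (RLP32) and 0.979 (ROC3) with ABI1, and 0.986 (AT1G10650), 0.98 (GPS1) and 0.979 (ML1) with HAB1. For OST1 the nearest was FAR1 (r = 0.975), for ABI2 SGP2 (r = 0.946), for ABA2 AT1G55200 (r = 0.935) and RR12 (r = 0.923), and for CYP707A3 PEPKR1 (r = 0.895), CAF1a (r = 0.886) and BT5 (r = 0.876).

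The labels describe 2 independent experiments, and the replicate numbers were compared within each tissue. PYR1 was the 1 gene of 10 that differed in the shoot apex, against 20.7% of all tested genes. It averaged 78.6 ± 12.9 FPKM in replicate 1 and 58.2 ± 23.3 in replicate 2 (SD, n = 6), a difference of 0.51 ± 0.17 (limma adjusted p = 0.0444). At ZT106 its 2 libraries read 88.1 and 31.8 FPKM. The call was lost in 16 of 24 fits that left out a library. The other 9 genes (NCED3, ABA2, CYP707A1, CYP707A3, ABI1, ABI2, HAB1, OST1 and ABF3) did not pass there, with differences of replicate 1 minus replicate 2 from -0.14 (NCED3) to 0.10 (ABF3). In leaves 0 of 10 differed with limma, against 30.7% of all tested genes, and 1 of 10 had an unadjusted p under 0.05, against 40% of all tested genes. The leaf differences ran from -0.45 (CYP707A3, adjusted p = 0.0855) to 0.17 (HAB1), and that of CYP707A3 passed after rescaling (-0.54, adjusted p = 0.0425).

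Another 58 genes of the pathway give the setting of these 10, and 40 of them were tested. The shoot apex was higher for 20, against 68.6% of all tested genes, leaves for 12, against 21.4%, and 8 did not pass. After rescaling 11 were higher in the shoot apex, against 43.1% of all genes, 24 in leaves, against 41.4%, and 5 did not pass. In leaves 24 of the 40 followed a 24 h wave, against 40.9% of all tested genes, and in the shoot apex 8 did, against 13%, with 6 passing in both. With the replicate block the counts were 28 in leaves, against 54.1%, and 13 in the shoot apex, against 20.9%.

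Of 3 other synthesis genes tested, leaves were higher for 2 and the shoot apex for 1 on the deposited scale, and leaves for all 3 after rescaling. ABA1, which makes the epoxidised carotenoid precursor, was at 88.1 ± 36.4 FPKM in leaves and 19.9 ± 6.39 in the shoot apex (SD, n = 12), a difference of -2.03 ± 0.090 (limma adjusted p = 2.51e-12). It also rose and fell in both tissues, with amplitudes of 0.51 and 0.83 and peaks at hours 2.47 and 1.51. The waves of ABA1 differed between the tissues with the replicate block (adjusted p = 0.0326). AAO3, the last oxidase of the route, was higher in leaves (-0.28, limma adjusted p = 0.0128), but its leaf level went with the replicate number, at 5.73 FPKM in replicate 1 and 3.81 in replicate 2, against 3.70 and 3.64 in the shoot apex. With replicate 1 alone the tissue difference was -0.51 and passed, and with replicate 2 alone it was -0.05 (limma adjusted p = 0.524). The leaf wave of AAO3 passed with the replicate block (adjusted p = 0.00899) and not without it (0.256). ABA3, which makes its cofactor, was higher in the shoot apex (0.32 deposited, -0.12 rescaled). NCED2, NCED5, NCED6 and NCED9 were too low to be tested, with at most 0.64 FPKM in any library, so NCED3 was the 1 tested gene of its family.

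The hydroxylase genes did not share a direction. CYP707A4, like CYP707A1, had more transcript in the shoot apex. It stood at 7.05 ± 1.53 FPKM there and 0.579 ± 0.261 in leaves, a ratio of 12.2 and a difference of 2.34 ± 0.052 (limma adjusted p = 9.66e-16). CYP707A2 was not tested, with mean levels of 0.290 FPKM (apex) and 0.636 FPKM (leaves), while CYP707A3 had the higher leaf mean at 5 of 6 times. BGLU18, which releases the hormone from its glucose ester, was at 465 FPKM in the shoot apex and 90.4 in leaves (2.39 ± 0.12), while its relative BGLU33 and the glucosyltransferase genes UGT71B6 and UGT71C5 were higher in leaves (-1.13, -1.13 and -0.18). The leaf level of UGT71B6 went with the replicate number, at 2.77 FPKM in replicate 1 and 0.785 in replicate 2, against 0.192 and 0.151 in the shoot apex. Its leaf wave passed with the replicate block (adjusted p = 0.00924). Of 4 transporter genes, ABCG25 was higher in the shoot apex (0.81) and NPF4.6 in leaves (-0.44), and after rescaling 3 of the 4 were higher in leaves. DTX50, an exporter, was the 1 transporter gene with a wave, in leaves, with an amplitude of 0.71 ± 0.10 and a peak at hour 21.89 (limma adjusted p = 3.33e-05). Its shoot apex amplitude was 0.31 ± 0.10 (adjusted p = 0.119). ABCG40, an importer, differed by replicate number in leaves, with a mean of 8.71 FPKM in replicate 1 and 0.902 in replicate 2 (limma adjusted p = 3.65e-07), and its tissue difference of -0.90 did not pass (adjusted p = 0.0616). It passed after rescaling (-1.30, adjusted p = 0.0137), with the replicate block (adjusted p = 2.43e-06) and in each of the 6 fits that left out a leaf library of replicate 2. The apex held 1.45 FPKM (replicate 1) and 0.964 (replicate 2) on average, so only replicate 1 showed a leaf excess. The block takes this disagreement out of the error, so its p does not measure agreement between replicate numbers. The block also let the leaf wave of ABCG40 pass (adjusted p = 0.00527).

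Of 8 other receptor genes tested, the apex was higher for 4, and 4 did not pass; after rescaling 1 was higher there (PYL2) and 5 in leaves. PYL2 was at 7.88 ± 2.73 FPKM in the shoot apex and 1.86 ± 0.755 in leaves (1.61 ± 0.12, limma adjusted p = 3.23e-09). In leaves 6 of the 8 followed a wave (5 after rescaling), against 40.9% of all tested genes. PYL1, PYL2, PYL4 and PYL5 peaked between hours 22.89 and 2.46, around the fitted peak of PYR1. The receptor genes did not all share this timing. Among the rest, leaf means were highest at ZT94 for PYL8 (39.8 FPKM), ZT98 for PYL6 (4.22), ZT106 for PYL7 (18.4) and ZT90 for PYL9 (10.6). PYL2 passed in the shoot apex too (0.51 ± 0.12, peak at hour 23.37), where it was 1 of 8, against 13% of all tested genes. With the replicate block 5 of 8 passed there, against 20.9% of all genes, among them PYL1 (adjusted p = 0.032), PYL4 (0.0282) and PYL5 (0.00881).

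The fitted peaks of the other kinase genes lay at earlier hours than those of OST1. SNRK2.2 and SNRK2.3, close relatives of OST1, passed in both tissues, with peaks at hours 9.78 and 9.40 in the shoot apex against 10.86 and 9.84 in leaves. SNRK2.2 swung by 0.75 ± 0.040 in leaves and 0.27 ± 0.040 in the shoot apex, and SNRK2.3 by 0.78 ± 0.045 and 0.54 ± 0.045. Among 4 other transcription factor genes, ABI5 (0.85 ± 0.069), ABF1 (0.60 ± 0.066) and ABF4 (0.50 ± 0.039) were higher in the shoot apex, and the latter pair turned to -0.01 and -0.13 after rescaling. The waves of ABF4 differed between the tissues after rescaling (adjusted p = 0.0203) and with the replicate block (adjusted p = 0.0467). ABF1 peaked at hours 10.05 and 10.33, beside the SNRK2.2 and SNRK2.3 peaks. ABI5 rose and fell in the shoot apex (amplitude 0.56 ± 0.068). Of 4 other phosphatase genes, HAI1 (0.90 ± 0.20), HAI2 (0.57 ± 0.12) and HAB2 (0.41 ± 0.055; -0.24 rescaled) were higher in the shoot apex and PP2CA in leaves.

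Target genes of the response split between the tissues, 4 of 10 being higher in the apex, against 68.6% of all tested genes, and 5 in leaves, against 21.4%. After rescaling 3 were higher in the apex, against 43.1% of all genes, and 5 in leaves, against 41.4%. The dehydrin gene RAB18 was listed at 0 in 6 of 12 shoot apex libraries and reached 0.553 FPKM there, against 3.36 to 20.3 in leaves (-2.69 ± 0.18, limma adjusted p = 4.46e-10). RD22 was higher in leaves as well (-1.81 ± 0.087), and the homeobox gene HB-7 in the shoot apex (1.21 ± 0.14). In leaves 7 of 10 targets followed a wave, against 40.9% of all tested genes. In the shoot apex 0 of 10 did with limma, against 13%, and 1 had an unadjusted p under 0.05, against 24.6%. With the replicate block 1 passed there (KIN2, adjusted p = 0.0412), and the waves of RD29A differed between the tissues (adjusted p = 0.0324). RD29A had an amplitude of 2.02 ± 0.31 and a peak at hour 12.28 in leaves (limma adjusted p = 8.6e-05), and KIN2 2.00 ± 0.22 and hour 11.92 (adjusted p = 9.55e-07). The leaf peak of ABI1 was at hour 13.10. At ZT106 the leaf replicates of RD29A read 20.5 and 235 FPKM and those of KIN2 187 and 1098, while at ZT110 they read 103 and 99.6, and 417 and 662.

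**Figure D4:**
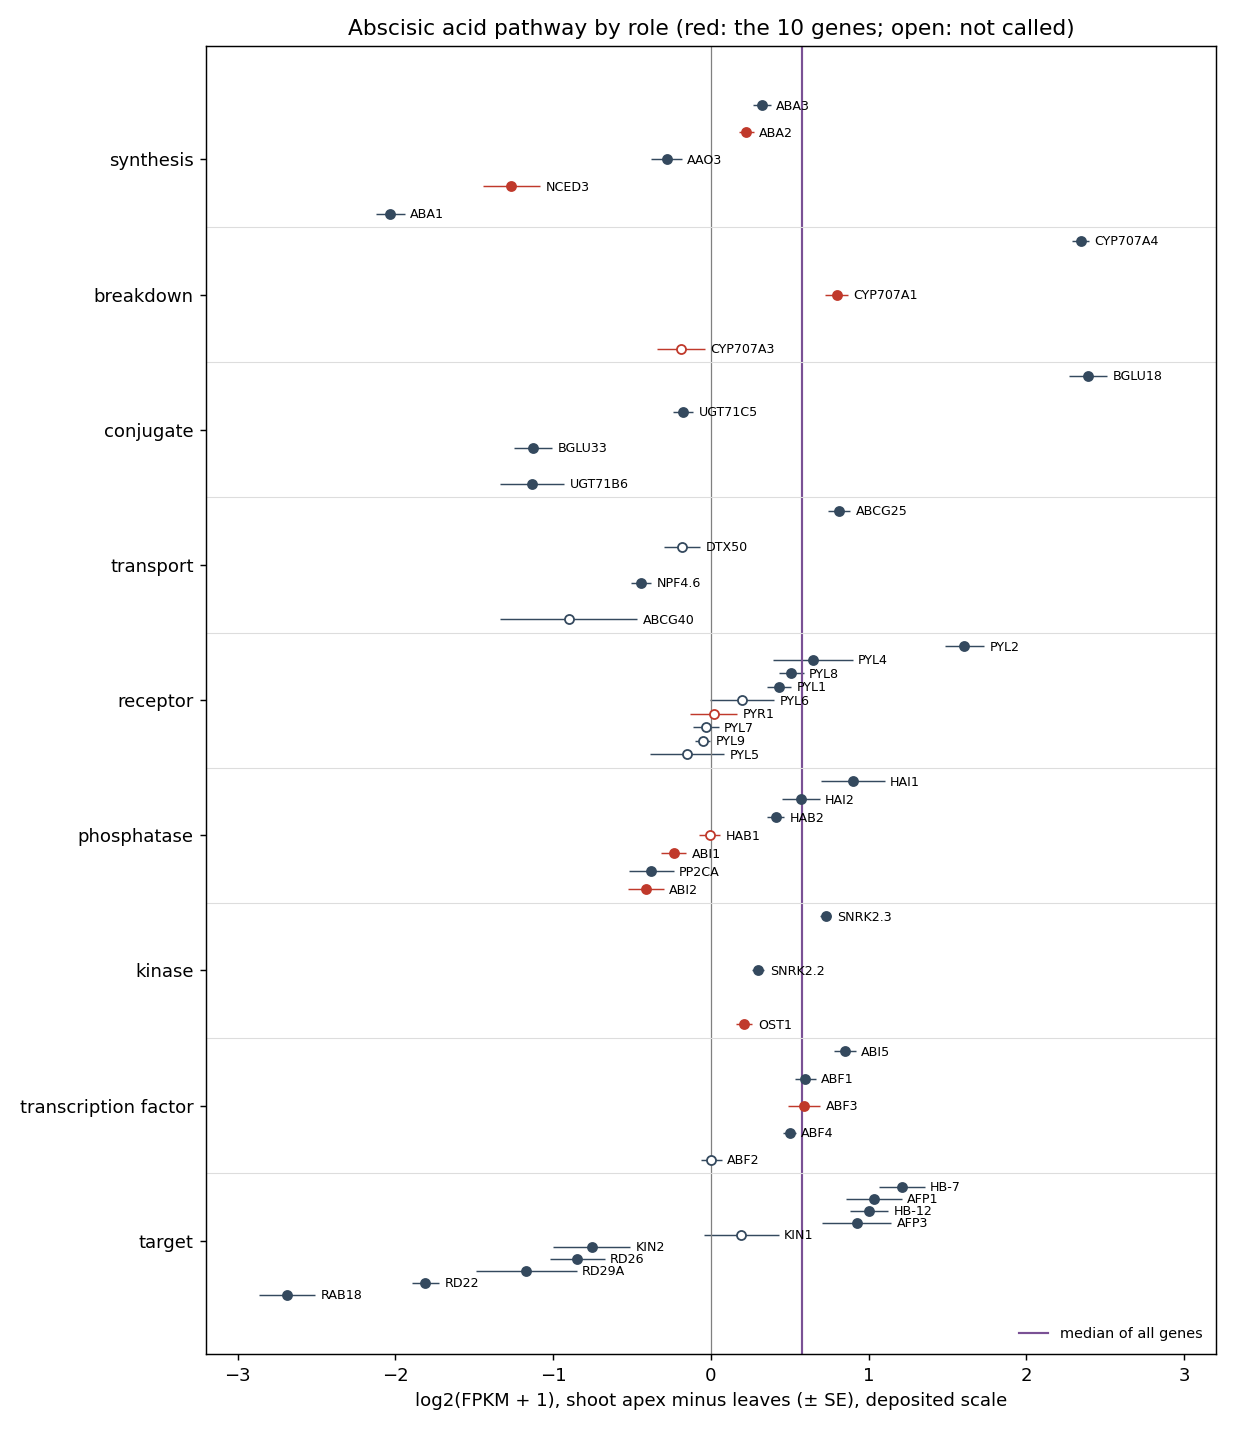
Difference of shoot apex minus leaves (log2(FPKM + 1), ± SE of the limma fit, deposited scale) for the 50 tested abscisic acid genes grouped by role; red points are the 10 genes described here, open points did not pass, and the line marks the median of all tested genes at 0.58. CYP707A4 (2.34), BGLU18 (2.39), ABA1 (-2.03) and RAB18 (-2.69) lie farthest from 0.

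A few libraries held the highest value of many pathway genes at once. In leaves, replicate 2 at ZT106 was the highest of the 12 leaf libraries for 15 of the 50 tested genes, among them NCED3, ABI1, ABI2, ABF3 and 5 target genes, against 8.63% of all tested genes. Replicate 1 at ZT94 was the highest for 10 of 50, 5 of them targets, against 12.3% of all genes. These are the leaf libraries with the highest NCED3, which is itself counted among the 15 genes. Next in NCED3 were leaf replicate 2 at ZT102 (3.89 FPKM) and at ZT98 (3.44). They were the highest for 1 and 4 of the 50 genes and for 0 targets. Among shoot apex libraries, replicate 2 at ZT106 was the highest for 11 of 50, 3 of them among the 10 genes and 3 targets, against 10.3% of all genes; NCED3 was highest there too, at 0.714 FPKM. What set these libraries apart was not tested.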

How the data were processed

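PolyA RNA from 24 libraries (12 groups of 2) was sequenced as single-end 50 bp reads, per the labels' protocols. The authors deposited FPKM values per gene in 1 table; STAR 2.5.0c, HOMER and TAIR10 are named in the submitters' processing notes, and their settings, the use of strand and the handling of reads shared between gene copies are not given in the sources used here. Because FPKM are not counts, log2(FPKM + 1) entered limma 3.58.1 under R 4.3.3 with a trended prior, and p-values were adjusted after Benjamini-Hochberg over all 19986 tested genes (threshold 0.05). A gene was tested when 2 or more libraries reached 1 FPKM, and 1 gene with a text cell was dropped. A model of 12 group means gave the tissue difference (mean of 6 shoot apex groups minus mean of 6 leaf groups), the time courses and the replicate differences, and a mean with a 24 h cosine and sine for each tissue gave the waves. Each fit was tested on simulated data (19986 genes). The changed genes were drawn from those with a mean log2(FPKM + 1) above 2, which leaves out NCED3, CYP707A1 and CYP707A3. Simulated noise was independent between libraries, whereas the replicate differences of leaf groups were correlated (given below). The recovery therefore does not describe the lowest genes or correlated replicates. A tissue shift of 0.5 log2 was recovered in 87.5% of 200 changed genes and a wave of amplitude 0.5 in 86% (shoot apex) and 89.5% (leaves). Recovery at this size was lower in the other tests, at 67% for the wave difference and 68% for each tissue's time course. A shift of 0.5 between replicates was recovered in 68% (shoot apex) and 66% (leaves).

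Read depth is not given in the table, and it was estimated from the steps between FPKM values. The match was weak, and in some libraries the best depth scored little above the next best. For shoot apex replicate 1 at ZT110 the scores were 0.071 and 0.064, where 1 would be a perfect match. Depths and read numbers are therefore rough. Labels do not say which replicate number belongs to which experiment, and p-values measure the spread between these samples, which may be technical. The pairing of samples by replicate number was checked by correlating the replicate differences of pairs of groups. Shoot apex pairs gave 0.16 to 0.44 and leaf pairs 0.55 to 0.76. Pairs of both tissues gave 0.05 to 0.32 at 1 time and -0.01 to 0.28 at other times. Numbers therefore pair time points within leaves, while the shoot apex range overlaps those between tissues. The fit with a replicate block within each tissue is given beside the waves and tissue differences whose call it changes. Promoter windows came from the RefSeq annotation of TAIR10.1. Python 3.11.15, pandas 2.3.3, numpy 2.4.6 and matplotlib 3.10.9 were used for tables and figures.

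The 10 genes, the pathway, marker and motif lists and the tests were chosen with earlier results of these data known. All 10 genes are covered in each comparison. Of the other pathway genes, the text names up to 3 per role with the smallest adjusted p for the tissue difference, up to 3 per role with the smallest for rhythm in either tissue, and all of roles with 3 or fewer tested genes. PP2CA, PYL6, PYL7, PYL9 and the genes too low to be tested were named after their values were seen. Genes alike in course were the 3 with the highest correlation for each member with a wave (mean FPKM of at least 5). Alternative settings were no filter, a pseudocount of 0.1, a mean FPKM of at least 5, rescaled libraries, replicate blocks, periods of 22 and 26 h, each tissue alone, and leaving out libraries or replicate numbers.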

Additional observations from a re-analysis of the deposited data

Results flagged for a closer look

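The 24 h waves of the tissues differed for 6 of the 50 tested abscisic acid genes in the test of the difference itself (limma F-test on the cosine and sine terms, adjusted over all 19986 tested genes), against 10.6% of all tested genes, so the count lies near the background. The adjusted p was 0.0384 for ABA2, whose amplitude was 0.06 ± 0.056 in the shoot apex against 0.34 ± 0.056 in leaves. It was 4.11e-05 for SNRK2.2 (0.27 ± 0.040 and 0.75 ± 0.040) and 0.0322 for SNRK2.3 (0.54 ± 0.045 and 0.78 ± 0.045). The SNRK2.3 call was lost in 8 of 24 fits that left out a library (adjusted p from 0.0161 to 0.0766), after rescaling (0.0513) and with a 26 h period (0.17). For KIN2 it was 0.00542, with 0.67 ± 0.22 in the shoot apex and 2.00 ± 0.22 in leaves. ABI5 gave 0.0112, with the larger amplitude in the shoot apex (0.56 ± 0.068 against 0.15 ± 0.068), where its level was higher, and did not pass with a pseudocount of 0.1 (0.236). CYP707A4 gave 0.00659, with similar amplitudes (0.32 ± 0.069 and 0.27 ± 0.069) and fitted peaks at hours 22.76 (apex) and 6.34 (leaves). The leaf level of CYP707A4 was 0.579 FPKM, and that of ABI5 0.204 FPKM.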

How the results depend on the processing

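Rescaling the libraries changed the sign of the tissue difference of 13 named genes that passed on at least 1 scale: ABA2 (-0.40), PYR1 (-0.66), OST1 (-0.36), ABF3 (-0.057), ABA3 (-0.12), PYL8 (-0.17), PYL1 (-0.24), PYL4 (-0.033), HAB2 (-0.24), SNRK2.2 (-0.37), ABF4 (-0.13), ABF1 (-0.013) and ABF2 (-0.62). ABF3, PYL4 and ABF1 then lay near 0, so their deposited difference was lost rather than reversed. PYR1 and ABF2 had not passed on the deposited values, so their leaf excess appeared only after rescaling. Counts of the 10 genes moved as follows. For the tissue difference (7) the mean filter of 5 FPKM gave 4, since it removes 4 of the genes, and each replicate number alone gave 4. The leaf time course (4) gave 2 after rescaling or with each tissue alone, and that of the shoot apex (0) gave 1 with each tissue alone. The shoot apex wave count (3) was 5 with the replicate block within each tissue and 1 without replicate 2. The count of wave differences (1) was 2 with that block or a 22 h period and 0 without replicate 2. The replicate difference in the shoot apex (1) was 0 with a pseudocount of 0.1, no filter, rescaling or each tissue alone, and in leaves (0) it was 1 after rescaling.

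Over all tested genes, the block within each tissue gave 2647 and 8740 time course calls in the shoot apex and leaves (933 and 4629 without it), 4182 shoot apex waves (2608) and 4034 wave differences (2127); a block shared by the tissues gave 1484 time course calls in the shoot apex. Leaving out replicate 1 or 2 gave 1073 or 330 wave differences and 2013 or 956 shoot apex waves. Leaving out each of 24 libraries in turn gave 17890 to 18015 tissue calls, 1733 to 2177 wave differences, 1997 to 2684 shoot apex waves, 7349 to 8356 leaf waves, 655 to 956 and 3821 to 4653 time course calls, and 2563 to 4344 and 5103 to 6199 replicate differences in the shoot apex and leaves. Among the 10 genes these fits gave 7 to 8 tissue calls, 2 to 5 and 5 to 6 waves, 0 to 1 wave differences, 0 to 1 and 3 to 4 time course calls, and 0 to 1 and 0 to 2 replicate differences. Except where stated by construction, the causes were not tested. By the rough depth estimate, reads were few for NCED3 in the shoot apex (5 to 22) and CYP707A1 in leaves (12 to 33).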
